A study of Homo sapiens with 16 samples.

Results

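The libraries of LNCaP cells that carried the PRKCI guide and received enzalutamide (sgPRKCI ENZA, the combined condition) were set against those of control-guide cells in DMSO (sgC DMSO), for H3K4me3, H3K27me3 and EZH2. These are 6 of the 16 samples of the series, chosen by their guide, treatment and antibody labels. A further 6 libraries, from sgPRKCI DMSO and sgC ENZA, served only to form the sum of the single changes, and 4 IgG samples were not analysed here. LNCaP is an established androgen-responsive prostate carcinoma line; all groups were grown in the same medium, sgC is labelled sgControl, and enzalutamide was given at 10 µM for 72 h, with DMSO for 72 h as its control. The labels do not say whether a guide line is 1 clone or a pool, and each antibody gave 1 library per condition. There is therefore no spread between replicates, no test and no p-value below; intervals are 95% counting intervals, which cover counting error only. The question was whether the change in the combined condition equals the sum of the changes seen with the guide alone and with the drug alone.

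H3K4me3 is laid down at the starts of active and poised genes. EZH2 is the enzyme of the Polycomb complex PRC2 and writes H3K27me3 over silent genes, many of them regulators of development, and CpG-rich promoters are the usual place where both marks can meet. PRKCI encodes atypical protein kinase C iota, a kinase of the cell polarity complexes, and enzalutamide is an antiandrogen, a drug that blocks the hormone signal on which luminal prostate cells depend. CUT&RUN reads such proteins by releasing the DNA fragments around a bound antibody with a tethered nuclease.

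The 250 bases before the annotated start of 6 genes are shown because the results below turn on them: TNFRSF19 and LRRN1 for the rise of H3K4me3, AHR for its gain, EPHA3 for its loss, PCDH18 for a gain of H3K27me3 and ABCC9 for a loss of EZH2. The sequences come from the RefSeq promoter table, build GRCh38.p14, read 5′ to 3′ on the strand of the gene, and capitals mark CpG dinucleotides.
TNFRSF19, chr13:23570162-23570411, plus strand: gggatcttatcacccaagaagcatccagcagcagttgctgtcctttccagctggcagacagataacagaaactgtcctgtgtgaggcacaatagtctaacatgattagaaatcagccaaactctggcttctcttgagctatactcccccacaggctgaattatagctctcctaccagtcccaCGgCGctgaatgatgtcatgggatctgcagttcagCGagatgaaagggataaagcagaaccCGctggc
LRRN1, chr3:3799181-3799430, plus strand: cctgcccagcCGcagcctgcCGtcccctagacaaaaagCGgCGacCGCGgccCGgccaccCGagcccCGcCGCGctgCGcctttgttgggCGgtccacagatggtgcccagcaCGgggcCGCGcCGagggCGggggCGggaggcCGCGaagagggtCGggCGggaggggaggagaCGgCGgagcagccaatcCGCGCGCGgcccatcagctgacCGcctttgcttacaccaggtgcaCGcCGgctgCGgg
AHR, chr7:17298402-17298651, plus strand: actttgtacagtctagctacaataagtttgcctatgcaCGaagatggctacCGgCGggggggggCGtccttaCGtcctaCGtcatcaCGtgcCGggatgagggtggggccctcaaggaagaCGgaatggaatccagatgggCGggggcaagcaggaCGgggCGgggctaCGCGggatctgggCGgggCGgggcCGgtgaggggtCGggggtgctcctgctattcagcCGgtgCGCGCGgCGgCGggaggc
EPHA3, chr3:89107371-89107620, plus strand: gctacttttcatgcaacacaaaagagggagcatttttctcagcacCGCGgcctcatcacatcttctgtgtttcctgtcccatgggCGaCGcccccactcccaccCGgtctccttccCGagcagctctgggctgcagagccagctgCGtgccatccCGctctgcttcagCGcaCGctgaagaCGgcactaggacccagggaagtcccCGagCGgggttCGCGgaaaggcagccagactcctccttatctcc
PCDH18, chr4:137532495-137532744, minus strand: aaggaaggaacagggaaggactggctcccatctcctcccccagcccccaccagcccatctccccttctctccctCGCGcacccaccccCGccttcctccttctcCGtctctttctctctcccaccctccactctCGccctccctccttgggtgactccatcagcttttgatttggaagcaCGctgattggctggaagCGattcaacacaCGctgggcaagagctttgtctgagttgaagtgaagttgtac
ABCC9, chr12:21941427-21941676, minus strand: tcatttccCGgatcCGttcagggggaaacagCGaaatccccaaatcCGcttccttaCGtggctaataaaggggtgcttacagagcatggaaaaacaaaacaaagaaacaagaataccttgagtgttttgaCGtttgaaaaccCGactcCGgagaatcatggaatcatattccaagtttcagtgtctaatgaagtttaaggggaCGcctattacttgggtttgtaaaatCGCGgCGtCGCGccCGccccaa
The windows hold 4 CpGs at TNFRSF19, 33 at LRRN1, 24 at AHR, 15 at EPHA3, 8 at PCDH18 and 15 at ABCC9, beside a median of 17 over the 15842 of 20033 protein-coding genes that the table covers. Genes with an H3K4me3 site in all 4 libraries had a median of 22 CpGs. The median was 19 for genes that gained H3K4me3 in the combined condition, 322 of 422 matched, and 14.5 for those that lost it, 34 of 51 matched.

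The H3K4me3 lists held 17424 peaks in sgC DMSO and 18926 in sgPRKCI ENZA, the EZH2 lists 11452 and 24551, and the H3K27me3 lists 100414 and 78855. Read totals were not given in the sources used here. For the narrow peak lists the number of fragments stacked at each summit and the mean coverage of the library were recovered from the deposited fold enrichment and −log10 p, and a summit height is that number divided by the mean coverage. Coverage was 0.842 and 1.39 for H3K4me3 and 1.35 and 1.53 for EZH2 in sgC DMSO and sgPRKCI ENZA. The combined change is the log2 ratio of the heights in sgPRKCI ENZA and sgC DMSO, and the guide and drug changes are the log2 ratios of sgPRKCI DMSO and of sgC ENZA to the same sgC DMSO library. All 3 changes share that library; the departure, the combined change minus the sum of the single ones, contains each of the 4 libraries once. A site was called changed at 2-fold or more. H3K4me3 lay at 9 of 10 luminal prostate markers in sgC DMSO and in sgPRKCI ENZA. In both of these libraries it also lay at 1 of 4 basal markers (ITGB4), 1 of 5 neuroendocrine (SYP), 1 of 5 fibroblast (COL1A1), 1 of 5 leukocyte (SPI1) and 0 of 3 endothelial ones.

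In the median, H3K4me3 followed the sum of the single changes closely. Across 14585 sites called in all 4 libraries the median combined change was 0.33 on the log2 scale and the median sum 0.29, made of 0.05 for the guide and 0.23 for the drug. The median departure was 0.04. Of these sites, 216 rose at least 2-fold in the combined condition, which is 1.48% of them, and 118 fell, 0.809%. The sum of the single changes passed 2-fold upwards at 617 sites (4.23%) and downwards at 410 (2.81%). That sum counts the sgC DMSO library in both of its terms, and its SD across sites was 0.53 with 0.48 from counting error, where the combined change had an SD of 0.39 with 0.26 from counting error. Departures of at least 2-fold lay above the sum at 108 sites (0.74%) and below it at 21 (0.144%). At the 108 sites the median sum was −1.26 and the median combined change −0.11. At the 21 sites these medians were 0.86 and −0.25, so in both groups the median combined change was smaller in size than the median sum. Both groups were chosen by the departure, which contains the sum with its larger counting error, so that order is no result. Setting the heights of each library relative to its median site removes the shift of 0.33 and turns the split of changed sites to 39 risen and 377 fallen, so the count of risen sites holds only on the coverage scale; the departures then split into 82 above and 33 below the sum. With the departure taken on the linear scale, in units of the sgC DMSO height, 12 sites lay above and 11 below.

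**Figure D1:**
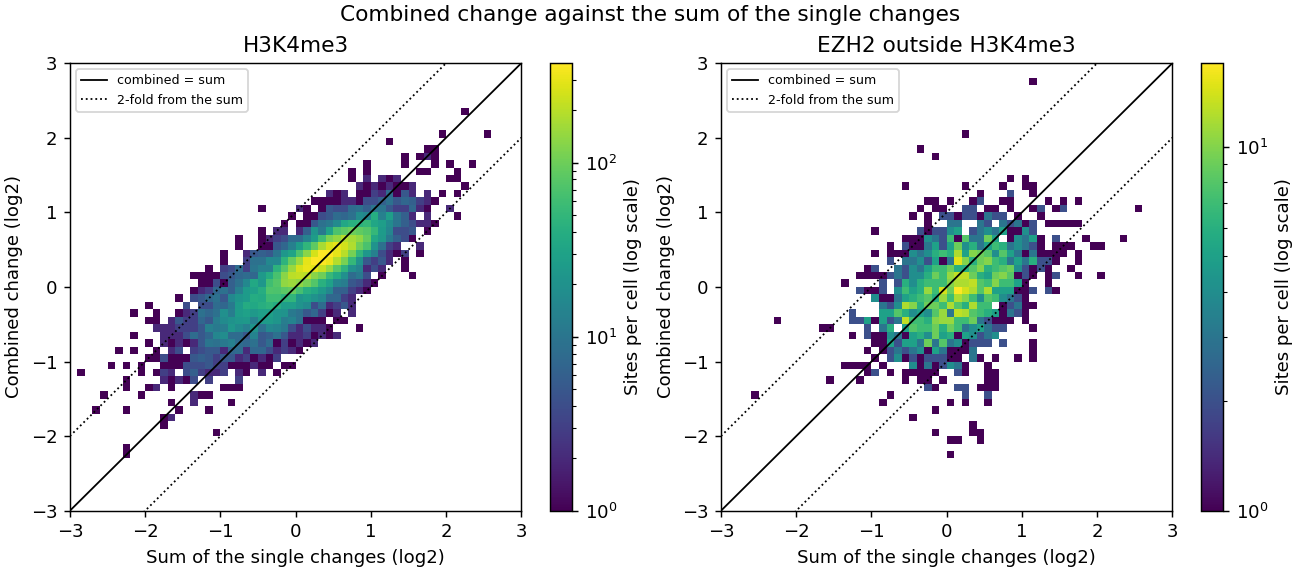
Combined change (vertical axis, log2) against the sum of the guide and drug changes (horizontal axis, log2) for H3K4me3 (14585 sites) and EZH2 outside H3K4me3 (1859 sites), coloured by the number of sites on a log scale. Most H3K4me3 sites lie between the dotted 2-fold lines, with 129 beyond them, and their combined changes spread less than their sums, so the cloud is flatter than the solid line of equality. Of the EZH2 sites, 142 lie below the lower dotted line.

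The spread of the H3K4me3 departures was no larger than counting error gives. Their SD was 0.30 over all sites, where the fragment numbers alone give 0.35, and it shrank with depth from 0.51 at sites with fewer than 20 fragments in the weakest library to 0.14 at those with at least 200, with 0.62 and 0.16 from counting. Among the 9650 sites with at least 50 fragments in every library, 0 departed from the sum by 2-fold, while 36 rose and 2 fell 2-fold in the combined condition. The counting SD treats a summit as a fixed position, although a summit is the maximum of a stack, so it is approximate. The departures spread less than it in every depth group, so it is a wide yardstick and cannot show that departures are absent. Sites not called in every library are left out. With their missing heights set to the lowest of the library, 1438 sites lay 2-fold from the sum.

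**Figure D2:**
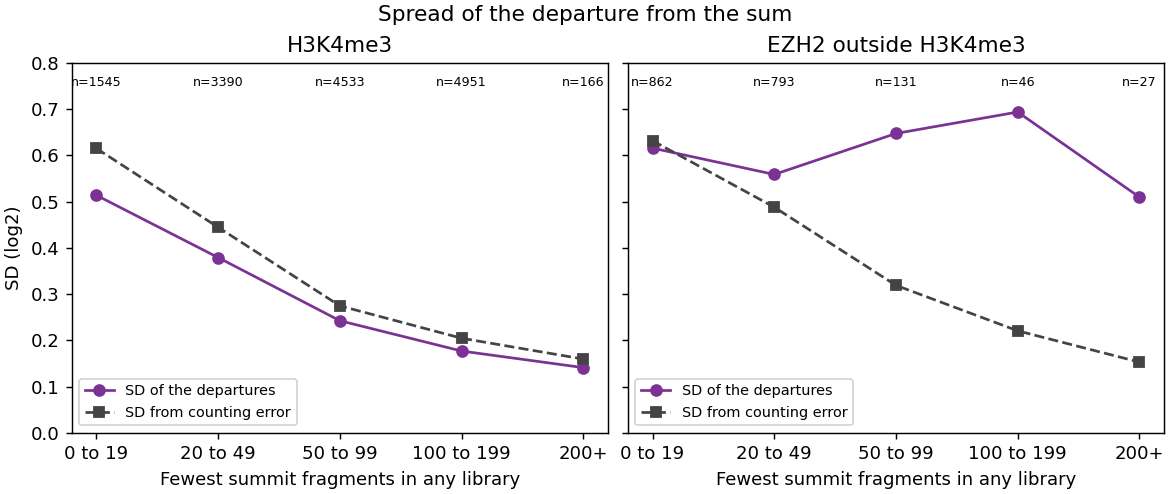
SD of the departures from the sum (circles, log2) and the SD that counting error alone gives (squares), for sites grouped by the fewest summit fragments in any library, with the number of sites above each group. For H3K4me3 the departures stay below the counting line in all 5 groups; for EZH2 outside H3K4me3 they lie above it from 20 fragments on.

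At individual promoters the combined rise was reached by different routes. TNFRSF19, a receptor of the tumour necrosis factor family, had H3K4me3 heights of 24.9 in sgC DMSO and 124 in sgPRKCI ENZA, with 106 in sgPRKCI DMSO and 28.2 in sgC ENZA, at chr13:23569923-23573740. Both sgPRKCI libraries stood high and both sgC libraries low, with 21 and 44 fragments in the low pair. Its combined change was 2.31 (1.66 to 2.96) and the sum of its single changes 2.26, a departure of 0.04 (−0.78 to 0.86). The sgC DMSO peak of this merged site did not reach the TNFRSF19 window printed above, which lay in a peak in the other libraries.

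LRRN1, a neuronal leucine-rich repeat protein, stood high with the drug. Its heights were 40.4 in sgC DMSO and 148 in sgPRKCI ENZA, with 51.8 in sgPRKCI DMSO and 108 in sgC ENZA, so both enzalutamide libraries stood above both DMSO libraries. The combined change of LRRN1 was 1.87 (1.35 to 2.40) against a sum of 1.77. In the order sgC DMSO, guide alone, drug alone and combined, which holds wherever 4 heights are listed below, COLEC12, a scavenger receptor of the collectin family, had 23.8, 34.5, 59.0 and 87.7 and a combined change of 1.88 (1.20 to 2.57) against 1.85. SLC22A3, an organic cation transporter, was higher in each single condition than in sgC DMSO and highest in the combined one, with heights of 21.4, 50.1, 34.6 and 88.4 and a combined change of 2.05 (1.33 to 2.76) against a sum of 1.92. CERK, the ceramide kinase, had 15.4, 25.5, 26.3 and 53.2, and XKR5, an XK-related membrane protein gene on chromosome 8, 14.3, 27.1, 18.0 and 55.3. The departures of these 6 risen genes ran from 0.03 to 0.70, and every interval of these departures included 0. The 6 were chosen by the size of the combined change, so a height that is largest in the combined condition is no result.

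The falls were weaker in fragments and their routes also differed. BOK, a pro-apoptotic BCL2 family gene, had heights of 38.0, 38.6, 11.5 and 11.5 at an annotated end of the gene. The enzalutamide libraries were low and the DMSO libraries high, and the combined change of −1.72 (−2.59 to −0.86) matched a sum of −1.70. PRRT1B had 54.6, 12.3, 39.1 and 17.2, low in both sgPRKCI libraries, with a combined change of −1.66 (−2.38 to −0.95) against a sum of −2.63. The site shared by GGN and SPRED3 had 34.4, 17.3, 26.3 and 11.5. CCDC85A had 32.1, 15.6, 40.4 and 12.2, and the site shared by HCST and TYROBP, signalling adaptors of leukocytes, 48.7, 25.5, 32.7 and 20.8. OPLAH, the 5-oxoprolinase gene on chromosome 8, fell from 52.3 to 13.7, with 36.2 and 35.3 in the single conditions, a combined change of −1.94 (−2.71 to −1.16) where the sum was −1.10. For these 6 falls, too, the counting interval of the departure included 0.

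The genes chosen for the largest departures rested on few fragments. The site shared by FOXN4, a forkhead factor, and MYO1H had heights of 27.3, 27.9, 16.0 and 38.8, a departure of 1.24 (0.22 to 2.27) with 23, 34, 25 and 54 fragments. STOM, a membrane scaffold gene, had 28.5, 27.1, 15.4 and 31.6 and a departure of 1.11 (0.07 to 2.16). ZYG11A departed by 1.17 and PSTPIP2 by 1.08. On the other side SCRT1 on chromosome 8, a neural repressor, had 44.0, 40.3, 46.2 and 20.8, low in the combined condition alone, and a departure of −1.02 (−1.90 to −0.15). MAGED2 departed by −0.98, OLFML2B by −0.96, and the site shared by BORA and MZT1 by −0.94. These genes were picked as the extremes of many sites, so their departures are a description.

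**Figure D3:**
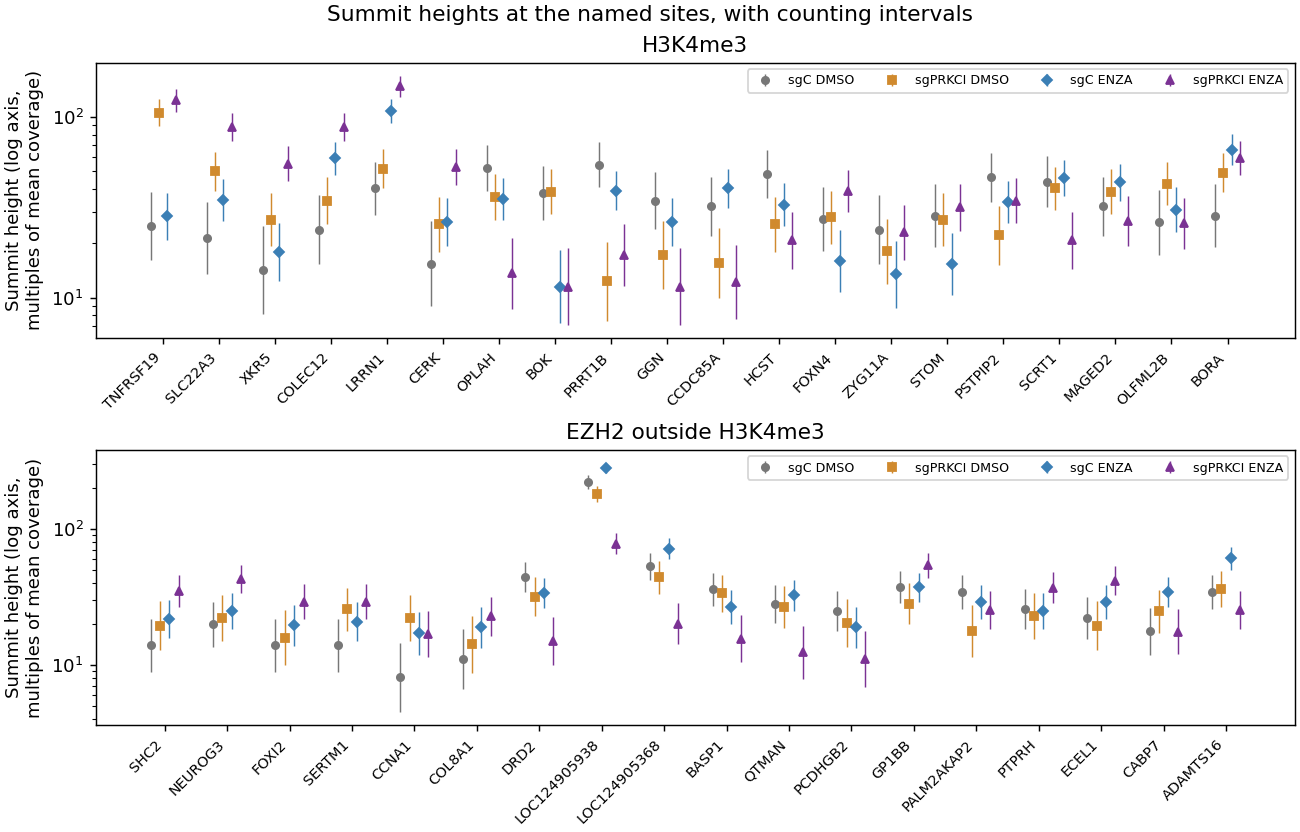
Summit heights (log axis, multiples of the mean coverage) in the 4 libraries at the named H3K4me3 sites and at the named EZH2 sites outside H3K4me3, with 95% counting intervals as bars. At TNFRSF19 the sgPRKCI libraries stand above the sgC libraries, at LRRN1 the enzalutamide libraries stand above the DMSO libraries, and at ADAMTS16 and both LOC sites the sgPRKCI ENZA library is the lowest and the sgC ENZA library the highest.

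More genes gained H3K4me3 than lost it. Of 20033 protein-coding genes, 422 (2.11%) had a peak within 1 kb of an annotated end in sgPRKCI ENZA and none within 5 kb in sgC DMSO, and 51 (0.255%) showed the reverse. The sgC DMSO library had the lowest H3K4me3 coverage; with the lists cut to equal numbers of peaks, 347 genes were gained and 75 lost. Of the 422 gained genes, 173 had a peak in both single conditions, 102 in sgPRKCI DMSO alone, 56 in sgC ENZA alone and 91 in neither. Each single comparison with the same sgC DMSO library gained 355 genes for the guide and 308 for the drug. Counted over merged sites instead of genes, 3278 were gained, of which 35.7% (34.1 to 37.4) were called in neither single condition, and 1417 were lost.

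The gained genes named here are those with the highest −log10 q. AHR, the aryl hydrocarbon receptor, had no peak in sgC DMSO and heights of 56.7 with the guide, 16.0 with the drug and 69.7 with both, so the sgPRKCI libraries were high. In the AHR window printed above, H3K27me3 was called in both sgC libraries and in neither sgPRKCI library. The wider H3K4me3 peak of sgPRKCI ENZA at AHR, however, touched H3K27me3 of sgPRKCI ENZA as well as of sgC DMSO. SYT4, a synaptotagmin of secretory vesicles, had 35.3, 26.3 and 58.2 in the same order. PCDHGC3, a clustered protocadherin, had 34.5, 25.01 and 40.2. CCND2, which encodes cyclin D2, had 22.2, 9.62 and 38.8, and the zinc finger gene ZNF257 had 30.4 in sgPRKCI DMSO, no peak in sgC ENZA and 36.7 in the combined condition. At these 5 genes the height was largest in the combined condition. They were chosen for no peak in sgC DMSO and a high −log10 q in sgPRKCI ENZA, so that order is no result. The lowest height called in sgC DMSO was 9.503, so a lower one there would not appear.

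Of the 51 lost genes, 14 still had a peak in both single conditions, 12 in sgPRKCI DMSO alone, 13 in sgC ENZA alone and 12 in neither. EPHA3, an ephrin receptor, had H3K4me3 heights of 45.1 in sgC DMSO and 50.02 in sgC ENZA and no peak in either sgPRKCI library. MMP16, a membrane metalloproteinase gene on chromosome 8, had 76.0 and 128.9 in the same libraries and no peak in either sgPRKCI library. ST6GALNAC1, a sialyltransferase, had 35.6 in sgC DMSO and 66.6 in sgPRKCI DMSO and no peak on enzalutamide. TMEFF2, a prostate-enriched membrane protein, had 32.1, 10.7 and 12.8, and PTGES, a prostaglandin synthase, 29.7, 18.1 and 16.7, untreated, with the guide and with the drug, and neither had a peak in sgPRKCI ENZA.

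EZH2 was read only at peaks that overlap no H3K4me3 peak of any condition. The reason is a property of the combined library: 59.2% (58.6 to 59.8) of its EZH2 peaks and 83.1% of its EZH2 summit fragments lay inside H3K4me3 peaks, against 32.6% (31.8 to 33.5) and 33.0% in sgC DMSO. Outside H3K4me3 there were 10023 EZH2 peaks in the combined condition and 7717 in sgC DMSO, beside 4784 with the guide alone and 13704 with the drug alone. The drug thus went with more peaks under both guides and the PRKCI guide with fewer under both treatments. These counts stood in the order of the mean coverage of the EZH2 libraries. It was 1.13 in sgPRKCI DMSO, 1.35 in sgC DMSO, 1.53 in sgPRKCI ENZA and 1.68 in sgC ENZA. The part of depth in the counts was not tested. H3K27me3 of the same condition lay at 94.3% (93.8 to 94.8) of these peaks in sgC DMSO and at 99.0% (98.7 to 99.1) in sgPRKCI ENZA. Fragments inside H3K4me3 take part in the mean coverage by which the heights were divided, and their part in the EZH2 heights of the combined library was not tested.

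Unlike H3K4me3, EZH2 departed from the sum by more than counting error at its well-covered sites. Over 1859 sites called in all 4 libraries the median combined change was −0.03, the median sum 0.14 and the median departure −0.19. In the combined condition 43 sites rose at least 2-fold (2.31%) and 77 fell (4.14%), where the sum passed 2-fold upwards at 110 (5.92%) and downwards at 35 (1.88%). Giving sites missing in a library its lowest height turned the order of the changed sites, to 1127 risen and 348 fallen. Relative to the sum, 142 sites (7.64%) lay at least 2-fold below the sum and 43 (2.31%) above it. At the 204 sites with at least 50 fragments in every library the departures had a median of −0.27 and an SD of 0.65, where counting error gives 0.28. Of these, 50 lay within 1 kb of a gene end, with a median departure of −0.48, and 0 of the 50 lay 2-fold above the sum and 8 below it. The SD was 0.42 at these 50, with 0.29 from counting, and 0.70 at the 154 farther from gene ends, with 0.28 from counting. Over all 509 sites within 1 kb of a gene end, whatever their fragments, the SD was 0.50 and counting error gives 0.52, so no excess was seen there. When every library was set relative to its median site, 102 sites lay 2-fold below the sum and 70 above it, so the lean to the lower side is partly a shift shared by all sites.

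The EZH2 falls named here were chosen by the size of the combined change. DRD2, the dopamine D2 receptor, had heights of 44.4, 32.0, 33.9 and 15.03, with a combined change of −1.56 (−2.26 to −0.87) against a sum of −0.86. BASP1, a growth cone protein, had 36.2, 33.8, 26.8 and 15.7. QTMAN, a tRNA queuosine mannosyltransferase, had 28.1, 26.6, 32.7 and 12.4, and the protocadherin PCDHGB2 25.1, 20.4, 19.0 and 11.1. The site at LOC124905938, chr2:91439342-91446133, had 222, 182, 282 and 78.4, and that at LOC124905368 had 53.3, 44.4, 72.0 and 20.3. Both LOC sites lie near the centromere of chromosome 2, where reads can be shared between repeated copies, so their values are uncertain.

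The EZH2 rises were smaller in fragments. They were chosen by the size of the combined change, so a height that is largest in the combined condition is no result. NEUROG3, a proneural transcription factor, had heights of 19.97, 22.2, 24.99 and 43.1, the highest in the combined condition, and a combined change of 1.11 (0.46 to 1.76) against a sum of 0.48. SHC2, a signalling adaptor, had 14.1, 19.5, 22.0 and 35.3, FOXI2 14.1, 16.0, 19.6 and 29.4, and SERTM1 14.1, 25.8, 20.8 and 29.4. COL8A1, a collagen gene, had 11.1, 14.2, 19.0 and 22.9. CCNA1, which encodes cyclin A1, had 8.14, 22.2, 17.3 and 17.0, so each single condition was as high as the combined one and the departure was −1.47 (−2.75 to −0.19).

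The departures of EZH2 at named genes were largest on the low side. ADAMTS16, a secreted metalloproteinase, had heights of 34.8, 36.4, 61.3 and 25.5, the highest with the drug alone and the lowest with both, and a departure of −1.33 (−2.14 to −0.53). CABP7, a calcium-binding protein, had 17.8, 24.9, 34.5 and 17.6 and a departure of −1.45 (−2.48 to −0.43). On the high side GP1BB, a platelet glycoprotein, had 37.7, 28.4, 37.5 and 54.2 and a departure of 0.94 (0.15 to 1.73). PALM2AKAP2 departed by 0.77, the site shared by PTPRH and SYT5 by 0.74 and ECEL1 by 0.70, each with an interval that included 0.

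Most EZH2 sites gained in the combined condition were absent from both single conditions. Of 5289 sites gained outside H3K4me3, 4165, or 78.7%, were called in neither single library, 905 in sgC ENZA alone, 90 in sgPRKCI DMSO alone and 129 in both. Few EZH2 sites recurred at all: 9.65% of the 19590 merged sites were called in all 4 libraries, and only 3426 were called in sgPRKCI DMSO. Of 3474 lost sites, 1466 were still called in sgC ENZA alone, 548 in both single conditions, 81 in sgPRKCI DMSO alone and 1379 in neither. H3K27me3 of sgC DMSO lay at 98.8% (98.4 to 99.0) of the gained sites, beside 99.2% of the sites called in both libraries and 91.8% of all merged EZH2 sites. The lost sites lay at H3K27me3 in 89.1% (88.0 to 90.1) of cases in sgPRKCI ENZA, where no EZH2 peak outside H3K4me3 was called any more. The gained sites had a median of 18 summit fragments in sgPRKCI ENZA, while the fewest of any peak called there was 12, so the median gained site stood near the threshold of the caller.

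**Figure D4:**
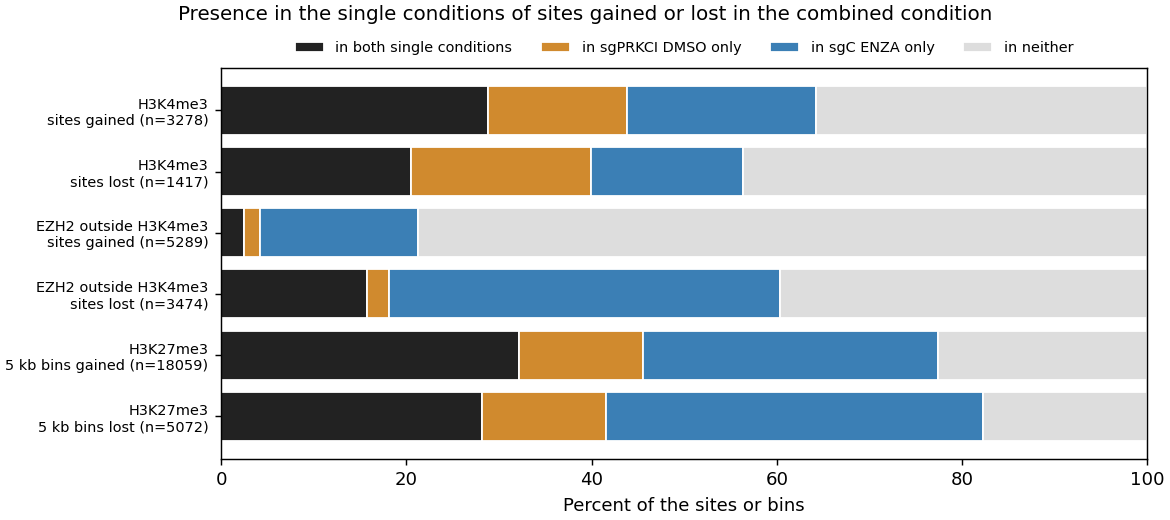
Horizontal bars give the percent of sites or 5 kb bins gained or lost in sgPRKCI ENZA against sgC DMSO that were called in both single conditions, in sgPRKCI DMSO only, in sgC ENZA only or in neither. Of the gained EZH2 sites 78.7% were in neither single condition, against 35.7% of the gained H3K4me3 sites and 22.6% of the gained H3K27me3 bins. Of all merged sites, 9.65% of the EZH2 and 63.4% of the H3K4me3 sites were called in all 4 libraries, so these shares have unlike bases.

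At genes, EZH2 outside H3K4me3 was present at 822 in the combined condition and 794 in sgC DMSO, with 605 for the guide alone and 975 for the drug alone. These counts, too, stood in the order of the mean coverage, and the part of depth was not tested. Gains numbered 173 (0.864%) and losses 147 (0.734%); with equal numbers of peaks the order turned, with 101 gained and 174 lost. For 61 of the gained and 18 of the lost genes, however, the other library did have an EZH2 peak within 5 kb that touched H3K4me3 and had been set aside. That left 112 gained, 65 of them with a peak in neither single condition, and 129 lost, of which 102 still had one in sgC ENZA and 43 in sgPRKCI DMSO.

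The first of the gained genes by −log10 q show why the stricter count matters. PAX6, an eye and brain regulator, had EZH2 heights of 41.4 in sgC DMSO and 37.2 in sgPRKCI ENZA once all EZH2 peaks were read, HOXB8 37.7 and 27.4, the cytokine gene IL11 35.5 and 28.7, and C1QL1 26.6 and 23.5, so these 4 are not gains of EZH2. TEX26, a testis-expressed gene, had a height of 27.4 in sgPRKCI ENZA and no EZH2 peak in the other 3 libraries. CD200, an immune checkpoint glycoprotein named here after its values were seen, had 22.9 in sgPRKCI ENZA, 11.3 in sgC ENZA and no peak under DMSO.

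Among the lost genes, COL9A3, a cartilage collagen, had EZH2 heights of 28.8 untreated, 23.1 with the guide and 28.0 with the drug, and no peak in sgPRKCI ENZA. ABCC9, the sulfonylurea receptor whose promoter is printed above, had 22.9, 22.2 and 30.3, ADAMTS19 30.3, 23.1 and 29.2, and AKAIN1, an A-kinase anchor inhibitor, 33.3, 20.4 and 21.4. These 4 had the peak in both single conditions and not in the combined one, and the H3K27me3 peak at each was called in all 4 libraries. SHANK1, a postsynaptic scaffold, had 25.1, 15.1 and 17.9, but in sgPRKCI ENZA an EZH2 peak that touched H3K4me3 lay within 5 kb.

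H3K27me3 covered more of the genome in the combined condition than in sgC DMSO, and less than the single changes add up to. Broad peaks covered 249.3 Mb in the combined condition and 191.7 Mb in sgC DMSO, with 232.3 Mb for the guide alone and 289.6 Mb for the drug alone. The combined library gained 57.5 Mb, where the guide gained 40.5 Mb and the drug 97.9 Mb, so it departed by −80.9 Mb from their sum of 138.4 Mb. As ratios, the combined change was 1.30 and the product of the single ratios 1.83. Counted in 5 kb bins instead, the departure was negative on all 24 chromosomes, from −5.79 Mb on chromosome 7 to −0.245 Mb on chromosome Y. The size of the departure depended on weak peaks: with −log10 q of at least 2 the lists covered 151.9, 177.7, 200.7 and 211.1 Mb for sgC DMSO, guide, drug and combined, the departure was −15.4 Mb, and the combined library covered more, not less, than the drug alone. The depth of these libraries is unknown, since broad peaks hold region means.

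**Figure D5:**
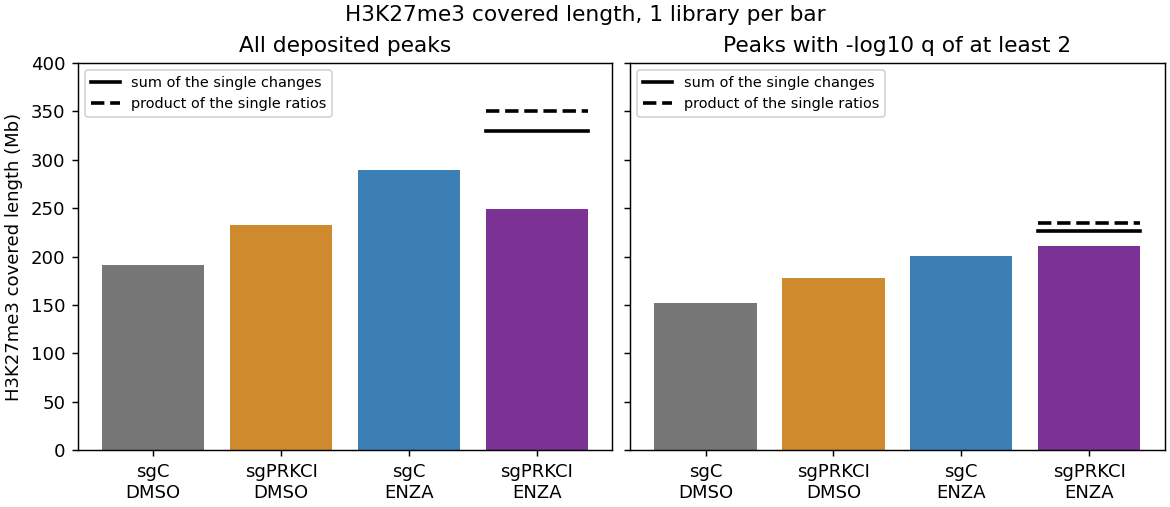
Bars give the H3K27me3 covered length (Mb) in each of the 4 libraries, for all deposited peaks and for those with −log10 q of at least 2; solid and dashed lines mark what the sum of the single changes and the product of the single ratios would give in sgPRKCI ENZA. With all peaks the combined library, at 249.3 Mb, lies below both lines and below sgC ENZA; with the stricter peaks, at 211.1 Mb, it lies below both lines and above sgC ENZA.

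In 5 kb bins, 18059 became covered in the combined condition (2.93% of 616952) and 5072 were lost (0.822%). Of the gained bins 5799 were covered in both single conditions, 5744 in sgC ENZA alone, 2431 in sgPRKCI DMSO alone and 4085 in neither. With the lists trimmed to equal covered length, 63.6 Mb of bins were gained and 35.5 Mb lost, against 90.3 and 25.4 Mb with the lists as deposited. The longest gained run spanned 90 kb at CDH12, a neural cadherin, chr5:22070001-22160000, with 14.7, 48.7, 58.8 and 74.4 kb covered in the order given above. A 60 kb run at BTLA, an inhibitory receptor of lymphocytes, had 7.52, 35.9, 35.4 and 52.8 kb. Both runs were chosen as bins covered in the combined library and not in sgC DMSO, so that order is no result. The longest lost run, 50 kb on chromosome 8 at the FAM90A genes, had 37.2, 9.12, 48.2 and 2.90 kb, low in both sgPRKCI libraries; these genes are near-identical copies whose reads may be shared, so their values are uncertain.

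At gene ends H3K27me3 moved at few genes. In the 10 kb around an end, 28 genes (0.14%) went from 0 to at least 5 kb covered in the combined condition and 12 (0.0599%) went the other way, 7 of these on chromosome 8. PCDH18, a protocadherin, had 0 kb untreated, 5.51 with the guide, 6.08 with the drug and 10.0 with both, which fills the window. GRIK2, a glutamate receptor subunit, had 0, 5.85, 2.01 and 10.0 kb, and EPYC, a small proteoglycan of cartilage, 0, 7.03, 5.83 and 8.18 kb. CNBD1 on chromosome 8 had 0, 4.22, 0.826 and 10.0 kb. PTPRC, which encodes the leukocyte antigen CD45, had 0, 0.605, 8.17 and 8.15 kb, with the drug alone as high as both together. These genes were chosen for 0 kb untreated and the longest cover in the combined library, so that order is no result. Of the 28 gained genes, 15 were covered over 5 kb or more in neither single condition. Among the lost genes SLCO1C1, a thyroid hormone transporter, had 6.65, 0, 1.59 and 0 kb and the olfactory receptor gene OR1G1 6.98, 0.697, 7.07 and 0 kb. FAM90A5, FAM90A20 and USP17L4, from multicopy families and thus uncertain, had 0 kb in sgPRKCI ENZA and between 6.97 and 7.61 kb in sgC DMSO.

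At EPHA3 and MMP16, which are in the list of lost H3K4me3 and in that of gained H3K27me3, the marks moved in opposite directions. EPHA3, whose H3K4me3 peak was absent from both sgPRKCI libraries, had 0, 6.89, 3.62 and 8.79 kb of H3K27me3. MMP16 had 0, 5.72, 0 and 7.24 kb, covered in the sgPRKCI libraries where its H3K4me3 was not called. The lost genes as a group showed no such shift: of 51, the lost peak touched H3K27me3 of sgC DMSO at 10 and of sgPRKCI ENZA at 11. Of the 118 H3K4me3 sites that fell 2-fold, 5.93% touched H3K27me3 in sgC DMSO and 5.93% in sgPRKCI ENZA. In the other direction, of the 216 H3K4me3 sites that rose 2-fold, 20.8% (15.6 to 26.9) touched H3K27me3 in sgC DMSO and 10.6% (6.87 to 15.5) in sgPRKCI ENZA, with 13.4% (9.18 to 18.7) for the guide alone and 23.6% (18.1 to 29.8) for the drug alone. Over all 14585 sites these shares were 3.81% and 3.28%, with 3.96% and 4.21%. The shares at risen sites were lower in both sgPRKCI libraries than in both sgC libraries, although the intervals of sgPRKCI DMSO overlap those of sgC DMSO and of sgC ENZA. At 211 of the 422 genes that gained H3K4me3, the gained peak touched H3K27me3 of sgC DMSO, and at 178 that of sgPRKCI ENZA. Over all 20033 genes, 3241 and 3203 had H3K27me3 within 1 kb of an end. That is another measure, so the shares cannot be compared.

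In the list of developmental transcription factors, the longest of the lists, H3K4me3 lay at 49, 62, 58 and 64 of 153. Of the 153, 12, or 7.84% (4.12 to 13.3), met the rule for a gain, against 2.11% of all genes, and 0 that for a loss. Only a gene without a peak in sgC DMSO can gain one. There 11886 of all 20033 genes carried a peak, against 49 of 153 members, so the 2 shares have unlike bases. The same limit applies to the shares of the lists below. Members with a peak in sgPRKCI ENZA and none within 1 kb in sgC DMSO included HOXA13, DLX5, NKX2-1 and SOX11. At the 49 members with a site in all 4 libraries the median combined change was 0.53 and the median departure 0.07, beside 0.38 and 0.03 over the 11787 genes measured. TBX3, a T-box factor, had heights of 116, 187, 196 and 253, and SOX9, a progenitor factor, 27.3, 32.9, 46.2 and 58.2. EZH2 outside H3K4me3 lay at 55, 41, 54 and 53 members, and the 38 with a site in all 4 had a median departure of −0.44, beside −0.22 over the 526 genes measured. Their median combined change was 0.03, beside −0.07 over those genes. Within this list SOX2, a neural stem cell factor, had EZH2 heights of 48.8, 34.6, 61.3 and 24.8, and POU3F3 37.0, 34.6, 47.0 and 23.5, the lowest in the combined condition in both cases. Members were named by the size of the combined change, so that order is no result. NEUROG3, the member with the largest combined change of EZH2, went the other way, with 19.97, 22.2, 24.99 and 43.1.

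In the neuroendocrine and neural list, H3K4me3 lay at 7, 11, 10 and 12 of 38 genes. Of these, 4 gained it, or 10.5% (2.94 to 24.8), against 2.11% of all genes, and 0 lost it. At the 8 members with a site in all 4 libraries the median combined change was 0.29, below the 0.38 of all genes measured, and the median departure −0.09. In this list SYT1, SNAP25, SYT4, POU3F2 and PEG10 had a peak within 1 kb in sgPRKCI ENZA and none in sgC DMSO. EZH2 outside H3K4me3 lay at 15, 9, 16 and 15 members, and the median departure over 10 of them was −0.67. NCAM1, a neural adhesion molecule, had EZH2 heights of 47.3, 42.6, 58.3 and 23.5, a combined change of −1.01 against a sum of 0.15, and FOXA2, a pioneer factor, 28.1, 22.2, 38.7 and 18.3. STMN2 went the other way, with 13.3, 14.2, 14.3 and 19.6. Of the 5 neuroendocrine markers chosen for cell identity, 1 had H3K4me3 in sgC DMSO and in sgPRKCI ENZA and 4 had H3K27me3 in both. Of 36 basal and mesenchymal genes, 10 carried H3K4me3 in sgC DMSO, 4 gained it, or 11.1% (3.11 to 26.1), and 0 lost it. VIM, SNAI2, TWIST1, LOX and TGFBR2 had a peak within 1 kb in sgPRKCI ENZA alone of the 2 libraries. The merged site at VIM was nevertheless called in all 4 libraries, with heights of 49.9, 50.1, 53.2 and 77.6, so its H3K4me3 was not new in the combined condition.

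At lists of active genes the median departures lay near 0. H3K4me3 was called in each of the 4 conditions at 51 of 51 translation factors and 78 of 79 cytosolic ribosomal protein genes, with median departures of −0.03 and −0.02 and combined changes of 0.35 and 0.42. EIF3C, a translation initiation subunit with a near-identical copy and thus uncertain, fell from 45.1 to 22.3, with 34.5 and 28.9 in the single conditions, and RPS9 went from 13.1 to 27.3. Of 42 androgen response genes 35 carried H3K4me3 in sgC DMSO and 35 in sgPRKCI ENZA, with a median departure of 0.04. BMPR1B, a bone morphogenetic protein receptor, had heights of 48.7, 96.1, 49.4 and 107, and SPDEF, a luminal ETS factor, 95.03, 110.1, 68.0 and 53.2. KLK3, which encodes prostate-specific antigen, had 29.7, 26.3, 19.2 and 33.1, lowest with the drug alone.

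Cell cycle genes, cell polarity complexes and Polycomb subunits changed H3K4me3 presence at 0 members in either direction, and their median departures were 0.02, 0.05 and −0.02. In sgC DMSO 44 of 45, 22 of 24 and 29 of 33 of them already carried H3K4me3, so few could gain it. TYMS, the thymidylate synthase, had 105, 150, 137 and 193, PARD6G, a polarity adaptor, 84.3, 85.5, 100.7 and 137, and JARID2, a PRC2 cofactor, 108, 130, 131 and 205. In the interferon and antigen presentation list 28 of 48 members carried H3K4me3 in sgC DMSO. Of the 48, 3, or 6.25% (1.31 to 17.2), gained H3K4me3, against 2.11% of all genes, and 1 lost it. IFIT1 went from 19.0 to 30.2. PRKCI had H3K4me3 heights of 171, 150, 221 and 209, which does not check the guide, because a promoter mark does not read an edited coding sequence. The EZH2 gene had 198, 244, 307 and 321, a combined change of 0.69 against a sum of 0.93. Of 10 luminal markers 0 gained and 0 lost H3K4me3, and among genes of other lineages 0 of 47 did so in either direction.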

How the data were processed

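CUT&RUN was run in LNCaP cells with 1 library per antibody and condition; groups came from the titles. FastQC, Trimmomatic, Bowtie2, SAMtools, MACS2 and GRCh38 are named, without versions, in the submitters' processing notes; the control used for peak calling and the use of the nucleosome spike-in are not stated there. The authors deposited narrow peaks for H3K4me3 and EZH2 and broad peaks for H3K27me3, 1 list per library, each peak with a fold enrichment ratio, a −log10 p, a −log10 q and a score; the offset of the summit is in the deposited narrow lists. These values are the authors'. The lowest −log10 q was 4.00 to 4.05 in narrow and 1.00 to 1.02 in broad lists.

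Whole summit fragments were solved, to 0.002 in −log10 p, for at least 99.9% of peaks (with a pileup scale of 0.890 for EZH2 of sgPRKCI ENZA). Solving, counting and merging were tested on simulated data. Only chromosomes 1 to 22, X and Y entered; the remaining contigs held 2.39% to 6.50% of a list. Overlapping peaks of the 4 conditions were merged; a site needed a call in all 4 libraries and 20 fragments in at least 1. A 5 kb bin was covered when peaks filled a share of at least 0.5. Gene ends came from RefSeq, GRCh38.p14, whose table gives no strand, so either end counts within 1 kb. Python 3.11.15, NumPy 2.4.6, pandas 2.3.3 and SciPy 1.17.1 were used; intervals on shares are exact binomial and those on log2 ratios come from the fragment numbers, and reads without molecular identifiers are not independent molecules.

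Named genes were the 6 largest rises and 6 largest falls and the 4 largest departures in each direction (at least 20 fragments in every library for H3K4me3 and EZH2 departures), the 5 gained and 5 lost genes with the highest −log10 q or the largest covered change, up to 4 members per list, PRKCI and EZH2. CD200, KLK3, the H3K27me3 runs and the list members named by presence lie outside this rule and were chosen after their values were seen. Members, lists and rules were chosen with earlier results of these data known.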

Additional observations from a re-analysis of the deposited data

Results flagged for a closer look

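With 1 library per condition, effects of the guide or the drug were compared between both arms by sign alone, and none of these differences was tested. The guide went with 40.5 Mb more H3K27me3 in DMSO and with a change of −40.4 Mb on enzalutamide; with −log10 q of at least 2 the value on enzalutamide was 10.4 Mb, so the opposite sign holds only with the weak peaks. Genes with an H3K27me3 peak within 1 kb changed by 293 with the guide in DMSO and by −392 on enzalutamide, and by 354 with the drug in sgC and −331 in sgPRKCI. The H3K4me3 covered length changed by 2.42 Mb with the guide in DMSO and by −1.25 Mb on enzalutamide, and by 3.64 Mb with the drug in sgC and −0.0259 Mb in sgPRKCI. The number of H3K4me3 peaks changed by 1543 and −368 with the guide and by 1870 and −41 with the drug, in the same order of arms. The sgC DMSO library, which had the lowest H3K4me3 coverage, enters the first value of each of these H3K4me3 pairs, and the part of depth in them was not tested.

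The EZH2 peaks inside H3K4me3, which were left out of the comparisons above, made up 59.2% of the sgPRKCI ENZA list, above the 32.6% of sgC DMSO; their median height was 60.1 in sgPRKCI ENZA and 16.3 in sgC DMSO.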

How the results depend on the processing

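Across 110 recomputed values of 17 results, 74 stayed within 1.5 times the reported value, 1 changed sign and 35 moved further. No paired analysis was possible because the labels give no replicate numbers and each group has 1 library, which also leaves no replicate to omit. For H3K4me3, sites changed 2-fold numbered 334 as reported, 1291 when sites missing in a library were given its lowest height, 182 with 20 fragments in every library, 218 with −log10 q of at least 10 and 176 at gene ends alone; sites 2-fold from the sum numbered 129 as reported, and 1438, 44, 50 and 38 in the same order, and 23 when the departure was taken on the linear scale in units of the sgC DMSO height. For EZH2 outside H3K4me3 the changed sites numbered 120, and 1475, 63, 65 and 22; sites 2-fold from the sum numbered 185, and 1794, 106, 102 and 29, and 67 on the linear scale. Filling in missing heights turned the median EZH2 combined change from −0.0268 to 0.0843. Genes that lost H3K4me3 numbered 51, and 97 when only 1 kb had to be free of peaks. Genes that gained EZH2 numbered 173, and 101 with equal numbers of peaks, 112 with no EZH2 peak of any kind in the other library and 91 at gene starts alone; those that lost it numbered 147, and 300 with only the H3K4me3 peaks of the own condition left out. For H3K27me3, 25.4 Mb was lost, and 76.8 Mb when a share of 0.1 of a bin sufficed; the departure of −80.9 Mb became −129 Mb at that share, −15.4 Mb with −log10 q of at least 2 and −21.8 Mb with lists of equal covered length. Genes gaining H3K27me3 numbered 28, and 62 with up to 1 kb allowed in the other library and 63 with the stricter q; those losing it numbered 12, and 30 and 31. The stricter filters and gene-end settings keep fewer sites by construction; for the other shifts the cause was not tested. The settings at gene ends or starts alone and with no EZH2 peak of any kind were added after the data were seen. Summits of 8 to 12 fragments, the fewest called, limit what a missing peak means.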
